A study of Mus musculus with 2 samples.

Results

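Length forms of shared piRNA starts were described in small RNA of mouse testes. Sequences of 24 to 32 nt that begin with T (U in the RNA) were grouped by their first 24 bases, so that a group holds the reads that share a 5′ start and differ in where they end. The groups were chosen by their read count: 1000 or more reads in the 2 deposited tables together. This kept 10305 groups of 3712643, called members here, and 2605722 of all groups had a single read. The members held 20993533 reads of the KO table and 21435818 reads of the het table, which were 61.7% and 61.9% of the T-start reads of 24 to 32 nt. The choice used the summed counts alone, so the lengths, ends and table ratios below are descriptions of groups picked for abundance.

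The labels describe testis small RNA of 2 kinds of mice at 23 dpp on the C57BL/6 background, 1 sample of Stambp-ps1-/- and 1 of Stambp-ps1+/-. Stambp-ps1 is a pseudogene of Stambp, and the labels do not say how the allele was made, or how many animals gave a sample. Both tables are recorded under the Stambp-ps1-/- sample, 1 with the word KO and 1 with the word het in its name. The KO table and the het table are called by that word alone, and no genotype was given to either of them. Each is 1 library without replicates, so no test between tables was made. Exact Clopper-Pearson intervals at 95% follow shares of reads in parentheses and cover counting error only, because copies made by PCR cannot be told from separate molecules here.

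piRNAs are germ cell small RNAs that guide PIWI proteins to their targets, and most begin with U. A long precursor is cut to give the 5′ end, and the 3′ end is trimmed and methylated after the PIWI protein has bound, so the footprint of the protein sets the length. In mouse testis MILI carries the shorter piRNAs and MIWI the longer ones, and the same precursor can feed both. Below, 26 to 28 nt and 29 to 31 nt are used as length classes, and no read was assigned to a protein.

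The sequences below show the forms the results turn on. Each line gives 32 bases of the annotated transcript from the shared start on. In the first set, members with a pair of length peaks, the capitals are the bases between the shorter and the longer end.
Gm49794 start A: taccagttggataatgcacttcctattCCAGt
Gm49794 start B: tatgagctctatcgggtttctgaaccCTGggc
Gm49794 start C: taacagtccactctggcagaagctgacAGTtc
1700001L05Rik start A: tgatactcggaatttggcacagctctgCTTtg
In the next set, members without such a pair by the peak rule given below, the capitals run from base 25 to the main end. The first 3 have their main end within the shorter class, and starts A and B of Gm21269 lie 1 base apart and have their main end at the same base.
Gm49794 start D: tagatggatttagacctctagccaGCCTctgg
Gm21269 start A: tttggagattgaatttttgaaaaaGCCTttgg
Gm21269 start B: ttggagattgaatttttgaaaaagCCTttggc
Gm21269 start C: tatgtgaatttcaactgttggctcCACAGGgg
Gm21284 start A: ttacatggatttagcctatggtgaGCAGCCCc
Gm21269 start D: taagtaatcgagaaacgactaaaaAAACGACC
The last set shows members that are not typical piRNA starts or that stood apart between the tables, a miRNA whose main form ends at base 24 (no capitals), a ribosomal RNA fragment and 3 members with high ratios.
Mir30a start: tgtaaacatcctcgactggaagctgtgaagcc
CT010467.1 window start A: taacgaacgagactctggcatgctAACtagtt
4930444F02Rik start A: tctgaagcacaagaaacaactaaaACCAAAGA
Gm21388 start A: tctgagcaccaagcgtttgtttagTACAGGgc
Gm10505 start A: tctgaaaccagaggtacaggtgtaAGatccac

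The places are those of the first 24 bases in GRCm38 with GENCODE M21, and each of these starts had 1 place among annotated transcripts. The long noncoding RNA Gm49794 (ENSMUSG00000116879.1, plus strand) holds start A at chr17:27358606-27358629, start B at chr17:27357417-27357440, start C at chr17:27355157-27355180 and start D at chr17:27356135-27356158. The long noncoding RNA Gm21269 (ENSMUSG00000108448.2, plus strand) holds start A at chr7:73817220-73817243, start B at chr7:73817221-73817244, start C at chr7:73824992-73825015 and start D at chr7:73819463-73819486. The start in the noncoding RNA 1700001L05Rik (ENSMUSG00000075511.9) is at chr15:83354954-83354977 on the minus strand. Gm21284 (ENSMUSG00000108660.1), annotated as an antisense RNA, holds its start at chr6:83585906-83585929 on the plus strand. The miRNA gene Mir30a (ENSMUSG00000065405.3) is at chr1:23272274-23272297 on the plus strand. The ribosomal fragment lies at chr17:39847736-39847759 on the plus strand, where the entries Gm42418, AY036118 and CT010467.1 overlap. The high-ratio starts lie in exons of the noncoding RNAs 4930444F02Rik (chr10:18800348-18800371, minus strand), Gm21388 (chr3:34873308-34873331, plus strand) and Gm10505 (chr17:27326818-27326841, plus strand).

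Most members had their main length, the length with most reads, in the longer class. It was 29 to 31 nt in 5941 members (57.7%) and 26 to 28 nt in 3244 (31.5%), counted over both tables together. A further 653 had a main length of 24 or 25 nt and 467 of 32 nt, the longest length in the tables, so any longer form is not counted here. The most frequent main length was 30 nt (2727 members), followed by 29 nt (1615) and 31 nt (1599), and in the shorter class 27 nt led with 1252 members. Groups just above the limit, of 1000 to 1049 reads, had a main length of 29 to 31 nt in 56.5% of 430, and those just below it, of 950 to 999 reads, in 58.9% of 508.

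Few members had a single sharp end. The median share of the main length was 46.9% of a member's reads. At least 50% of reads lay at the main length in 4557 members, at least 80% in 800 and at least 90% in 243. The share of 26 to 28 nt reads ran from 0 to 99.9%, with a median of 25.2% and quartiles of 8.90% and 51.7%. The share of 29 to 31 nt reads had a median of 55.2%. In 3100 members (30.1%) each class held at least 25% of the reads, and in 1936 neither class reached 50%. At the ends of the range, 245 members had at least 90% of their reads in the shorter class and 1234 in the longer one. The length classes thus overlap within single starts, and the sharply ended starts are the exception in either class.

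Among the 500 members with most reads, the sharply short ones included Gm49794 start D, with 97.7% of KO-table (97.5 to 98) and 97.8% of het-table reads (97.5 to 98) at 26 to 28 nt. Gm21269 start A ended at 28 nt in 93.1% of its 16647 KO-table reads and 93.5% of its 18878 het-table reads. The start beside it, Gm21269 start B, ended at 27 nt in 90.9% of 18234 KO-table and 90.9% of 18478 het-table reads. Both ends are the same base of the transcript. Start B had a minor form at 31 nt, with 4.81% of KO-table and 4.90% of het-table reads. Higher still on that ranking was an unplaced member, rank 84 by reads, with 98.2% of KO-table and 98.5% of het-table reads in the shorter class.

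The members shown here with few reads of 26 to 28 nt differed in their most frequent length. Gm21269 start C had 76.5% of 48010 KO-table and 73.6% of 40847 het-table reads at 30 nt, and 17.8% and 20.3% at 31 nt. Over both tables, 19.4% of its reads had a last base T that the transcript does not hold there. Gm21284 start A peaked at 31 nt, with 55.6% of 14578 KO-table and 55.5% of 14542 het-table reads, and had 33.3% and 33.4% at 30 nt. Its share of 26 to 28 nt reads was 0.274% (0.196 to 0.373) in the KO table and 0.193% (0.128 to 0.278) in the het table. Gm21269 start D peaked at the edge of the tables, with 55.6% of KO-table and 56.0% of het-table reads at 32 nt. A start in the 3′ UTR of Tbl2 had 91.1% of 10264 KO-table and 91.8% of 9934 het-table reads at 32 nt. The unplaced member of rank 73 had 86.7% of KO-table and 84.0% of het-table reads at 30 nt and 0.0365% and 0.0197% at 26 to 28 nt. The starts at 32 nt are cut by the length limit of the tables, so their main length is the longest one that could be counted.

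Many members had a pair of length peaks, and how many depends on what counts as a peak. A peak was a length with more reads than both neighbours and at least 10% of the member. At the edges, 24 and 32 nt, only 1 neighbour could be compared. A member was two-peaked when a length between 2 peaks fell to at most 0.8 of the smaller one. This held for 4770 members (46.3%), and 2932 of them paired a peak at 26 to 28 nt with one at 29 to 31 nt. With peaks of at least 20% of the member 20.1% were two-peaked, and with peaks of at least 5% it was 60.8%. With peaks at 25 to 31 nt only it was 39.5%. The most frequent pair was 27 and 30 nt (626 members), followed by 26 and 30 nt (464) and by 26 and 29 nt (354). The peaks lay 3 nt apart in 32.3% of two-peaked members, 2 nt apart in 29.6% and 4 nt apart in 22.1%. The larger peak held a median of 39% and the smaller one a median of 18.9% of a member's reads, and the longer form was the larger one in 52.5%. Peaks numbered 3 in 767 members and 4 in 32. Two-peaked members made up 59.4% of those with a main length of 24 to 25 nt, 55.3% at 26 to 28 nt, 39.6% at 29 to 31 nt and 50.5% at 32 nt. The values for 24 to 25 nt and for 32 nt include main lengths at the edges, which had 1 neighbour only.

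Gm49794 start A is an abundant member with such a pair, with 59856 KO-table and 52830 het-table reads. At 27 nt it had 26.8% of KO-table and 25.3% of het-table reads, at 28 nt 2.52% and 2.43%, and at 31 nt 16% and 16.1%. The dip at 28 nt is deep in both tables, and 26 nt, beside the shorter peak, held 23.0% of KO-table and 23.0% of het-table reads. Gm49794 start B had peaks at 26 nt (12.2% of KO-table and 15.0% of het-table reads) and 29 nt (27.9% and 27.7%), with 2.99% and 3.36% at 27 nt between them. It also had 24.1% of KO-table and 22.1% of het-table reads at 31 nt, so its longer form was spread over several read lengths. Over both tables, 41.4% of its reads had a last base T that the transcript does not hold there. In Gm49794 start C the shorter form led, with 63.8% of KO-table and 61.3% of het-table reads at 27 nt and 16.5% and 17.7% at 30 nt. The start in 1700001L05Rik had 18.8% of KO-table and 17.1% of het-table reads at 27 nt and 30.9% and 35.2% at 30 nt. The start in the 3′ UTR of Nemp1, a gene of a nuclear envelope protein, had 12.1% of KO-table and 11.8% of het-table reads at 26 nt and 45.6% and 44.9% at 29 nt. An unplaced member of rank 13 had nearly equal peaks, 46.2% of KO-table and 46.3% of het-table reads at 27 nt and 40.7% and 40.3% at 29 nt, with 4.48% of KO-table and 4.36% of het-table reads at 28 nt between them.

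Two-peaked calls made in each table alone gave 4794 members in the KO table and 4771 in the het table, 4447 of them in both, while 671 members were two-peaked in 1 table alone. Of the 4447, 4027 (90.6%) had the same pair of peak lengths in both tables, and in 3782 of these the same peak was the larger one.

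The members were not all piRNAs by sequence. In 84 members (0.815%), with 2.43% of member reads, the first bases lie in a miRNA of RefSeq or GENCODE, and 46 of them had a main length of 24 nt. Of the 84, 10 had a main length of 26 to 28 nt and 23 one of 29 to 31 nt, so this annotation also covers members of piRNA length. Mir30a, the member of rank 3, had 98898 KO-table and 74445 het-table reads. Of these 94.9% and 95.2% were of 24 nt and 4.47% and 4.27% of 25 nt. Mir30e, of the same family, had 92.0% of 71898 KO-table and 92.5% of 59600 het-table reads at 24 nt. A length of 24 nt is the shortest counted here, so shorter reads of these miRNAs are not part of the members. Of the 653 members with a main length of 24 or 25 nt, 51 were miRNA members. A at base 10, a feature of piRNAs made from a target that another piRNA has cut, stood in 3099 members (30.1%). It stood in 32.4% of the members with a main length of 29 to 31 nt, 28.1% with 26 to 28 nt and 22.5% with 24 or 25 nt. The share of A at other bases was not set beside these values, so they do not count members made that way.

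The labelled tissue was checked with miRNAs by exact mature sequence where the RefSeq table gives one. The 7 germ cell miRNAs of the testis summed to 15557 RPM (reads per 1000000 reads of a table) in the KO table and 14936 in the het table, led by Mir871 and Mir470. The 3 somatic testis miRNAs summed to 1261 RPM in the KO table and 847 in the het table. This difference was that of Mir10b (1095 RPM in the KO table and 671 in the het table), while Mir202 (45.8 and 51.1 RPM) and Mir204 (121 and 125 RPM) were slightly lower in the KO table. The 3 blood miRNAs summed to 24.8 RPM in the KO table and 16.4 in the het table. Mir1a-1 of muscle had 0 reads, which allows up to 0.0552 RPM in the KO table and 0.0478 in the het table by the limit of 3 reads.

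Most members had no place among annotated transcripts. An exact match of the first 24 bases was found for 1790 members (17.4%), and 1484 had 1 place. Of these 895 lie in long noncoding RNAs and 234 in protein-coding genes, and 1249 run in the sense direction of every transcript there, 200 antisense and 35 both ways. Annotated pachytene piRNA precursors are often long noncoding RNAs, and the noncoding RNAs with most members were Gm49794 (180 members), Gm21269 (155) and 1700001L05Rik (91).

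In the precursors with most members the lengths spread widely. The 180 members of Gm49794 ran from 0 to 98.6% in the share of 26 to 28 nt reads, and those of Gm21269 from 0.177% to 98.4%. The precursors also differed in their middle. Gm49794 had a median share of 45.6% at 26 to 28 nt, with 90 members of that main length and 62 of 29 to 31 nt. Gm10505, beside it on chromosome 17, had 46 of 88 members with a main length of 26 to 28 nt and 29 with one of 29 to 31 nt. Members of Gm21269 had a median of 31%, with 65 shorter and 81 longer, and those of 1700001L05Rik had 41 shorter and 44 longer. The longer class led in Nemp1 (24 of 34 members, with a median share of 10.2% at 26 to 28 nt), Gm5878 (27 of 35, 12.5%) and 4933440M02Rik (19 of 21, 13.8%). None of the 17 members of Asb1 had a main length of 26 to 28 nt, and 14 had one of 29 to 31 nt. Their share of 26 to 28 nt reads ran from 0.845% to 49.9%, and that of the 18 members of 1700042G15Rik from 0.299% to 54.2%. These ranges were narrower than those of Gm49794 and Gm21269, but a range tends to widen with more members. The 19 members of Gm14244 ran from 0.689% to 97.8%. Starts of 1 transcript are not independent of each other, and no test was made between precursors.

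Starts a few bases apart tended to share their 3′ end. Pairs of members were matched by sequence, with the second start 1 to 10 bases downstream. Of 782 pairs 1 nt apart, 60.5% had their main ends at the same base and 13.7% had the same length, against 15.6% with the same main length over all pairs of members. The same end was found in 42.4% of 873 pairs at 2 nt, 28% of 853 at 3 nt, 23.3% of 450 at 4 nt, 13.5% of 497 at 5 nt and 6.76% of 444 at 6 nt. Over all pairs of members, the main lengths that would bring the ends together at a shift of 1, 2 or 3 nt were found in 13.3%, 9.70% and 7.60%. Of pairs 7 nt apart, the same end was found in 1.80% of 333, and of those 8 nt apart in 0.631% of 317, and there was none among 311 pairs at 9 nt and 271 at 10 nt. The window of 24 to 32 nt allows a shared end at up to 8 nt only. Starts A and B of Gm21269, shown above, are such a pair 1 nt apart. Up to 4 nt the main end thus stayed at 1 base more often than the main length stayed the same, and from 5 nt on less often. The window allows fewer pairs of lengths with a shared end as the shift grows, so this order is partly set by the window. The values over all pairs of members cover shared ends up to 3 nt only.

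The bases at the end were read from the transcript for the 1465 members with 1 place and 18 transcript bases past base 24. At the last base of the main form C stood in 37.5% and T in 33.3% of members, and G in 12.1%. One base inside the end, A stood in 8.87% and C in 41.8%, and 3 bases inside it G stood in 38.8%. Right after the end the bases were A 31.7%, T 26.5%, G 23.1% and C 18.8%. From 3 to 9 bases past the end each base stood in 22.5% to 26.8% of members, so the composition differed most at the last bases of the main form. In the 664 two-peaked members with such a transcript and no miRNA, the ends were alike in some bases and not in others. The last base was C in 37.7% at the shorter and 37.2% at the longer end, and G in 11.6% and 17.0%. At 1 base inside, A stood in 11.1% at the shorter and 11.3% at the longer end, C in 38.0% and 27%, and G in 31.2% and 41.1%. At 3 bases inside, C stood in 23.3% at the shorter and 34.5% at the longer end. The cause of this composition was not tested.

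The base after the end came out differently when it was read from the longer reads of the same member. There it was T in 49.4% of the 5526 members where it was known, against 28.1% at the other positions from 25 to 32. For main ends at 30 nt and 31 nt it was T in 77.0% of 1054 and 87.9% of 642 members. The base was known in only 38.7% and 40.2% of members at those lengths, against 80.7% at 27 nt. It counted as known only where at least 90% of the longer reads held the same base, so these are selected members. The transcript gave 27.9% and 33.7% at those lengths, over 359 and 202 placed members, which are another set. The base read from the reads equalled the transcript in 98.2% to 99.6% of members at the positions from 25 to 30, in 90.5% at position 31 and in 68.0% at position 32.

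Many of the longest reads had a last base that is not in the transcript, and it was mostly T. In the placed members 10.7% of KO-table (10.7 to 10.7) and 10.7% of het-table reads (10.7 to 10.8) equalled the transcript up to the last base but not there, and T made up 90.2% and 89.6% of these bases. The share of reads with such a T did not follow length throughout. It was 12.1% of KO-table and 10.6% of het-table reads at 25 nt, 5.13% of KO-table and 5.24% of het-table reads at 27 nt, and 10.5% and 10.4% at 30 nt. At 31 nt it was 23.1% and 22.8%, and at 32 nt 24.5% and 23.4%. The reads at 25 nt include those of miRNA members. Mir30a, Mir30e and Mir30d, whose main form is of 24 nt, had such a T in 4.29%, 7.03% and 3.92% of their reads over both tables. Shares by length without miRNA members were not computed. Over the 1465 members the median share of reads with such a T was 6.12% in the KO table and 6.30% in the het table. The share reached 31% at the upper 5% of members. Gm49794 start B had 41.4% and Gm21284 start A 41.3% over both tables, against 0.200% for Gm49794 start D and 0.0563% for Gm21269 start A. Whether such a T was added to the RNA or arose in the library was not tested. With reads that equal the transcript alone, 1336 of 1465 members (91.2%) kept their main length, 116 became shorter and 13 longer.

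Member starts were also counted in the bases past a main end. Among 1468 members with an unbroken place, another member began on the next base after the main end in 27 cases. At 2 to 60 bases past the end the count was 7 to 29, with a median of 18. The highest count past the next base, 29, was at 11 bases, and the 27 of the next base was found again at 18 bases.

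By reads, the tables agreed closely in the length of a given start. The main length was the same in 9686 members (94.0%) and within 1 nt in 9990. With each distinct sequence counted once in place of its reads, it was the same in 50.1%. It was the same in 4555 of 4557 members with at least 50% of reads at 1 length, and in 895 of 1206 with under 30%. The 619 members with another main length had a median main share of 29.9%, against 48.4% in the others. Over the 9 lengths, a median of 4.18% of a member's reads would have to change length to turn 1 table's profile into the other's. The median share of 26 to 28 nt reads was 25.4% in the KO table and 24.8% in the het table, and that of 29 to 31 nt reads 55.0% and 55.6%. The share of 26 to 28 nt reads was higher in the KO table in 5965 members (57.9%). The difference had a median of 0.285 percentage points and lay between -3.60 and 4.98 points in the middle 90% of members. In all member reads together, 26 to 28 nt made up 31.8% of KO-table (31.8 to 31.8) and 31.7% of het-table reads (31.7 to 31.7).

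A difference of at least 10 points in the share of 26 to 28 nt reads was found in 53 members (0.514%). Among all T-start groups with at least 100 reads and reads in both tables it was 8.48%, and most of those groups have fewer reads and so more counting error. The share was higher in the KO table in 36 of the 53 and lower in 17. The difference at the top of the ranking was that of the ribosomal fragment in the CT010467.1 window, with 68.9% of 1739 KO-table reads (66.7 to 71.1) and 47.6% of 2609 het-table reads (45.7 to 49.6). Its 27 nt form held 57.2% of KO-table and 36.8% of het-table reads. A start in the noncoding RNA 1700009C05Rik went the other way, with 50.4% of 567 KO-table (46.2 to 54.6) and 69.6% of 460 het-table reads (65.1 to 73.7). An unplaced two-peaked member of rank 6538 had 30.5% of 1040 KO-table and 51.5% of 571 het-table reads at 27 nt, and 45.6% and 30.1% at 30 nt. Such shifts between the ends of 1 start were rare among the members.

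Read counts per start also differed little. The log2 ratio is the RPM of the KO table divided by that of the het table, with 0.5 reads added to each count. Its median was 0.20, and it lay between -0.30 and 0.53 in the middle 90% of members, with 8315 of 10305 above 0. By main length the median was 0.11 at 24 to 25 nt, 0.19 at 26 to 28 nt, 0.21 at 29 to 31 nt and 0.23 at 32 nt. The size of the shift depends on the scaling: per 1000000 T-start reads of 24 to 32 nt the median was 0.023, and per 1000000 reads of 18 to 23 nt it was 0.49. Changes of single members are therefore read against a median that moves with the scale.

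A log2 ratio at or above 1 was found in 40 members (0.388%), against 0.789% of all T-start groups with at least 100 reads. Of the 40, 29 had a main length of 29 to 31 nt and 30 began with TCTGA. This start was looked for after the sequences at the top of the ranking had been seen. Among them were 4930444F02Rik start A, with 5346 KO-table and 2245 het-table reads (log2 1.46), Gm21388 start A, with 690 and 331 reads (1.27), and Gm10505 start A, with 726 and 400 reads (1.07). All 3 begin with TCTGA in the lines above, and their lengths were alike in both tables: 75.9% of KO-table and 77.6% of het-table reads of Gm21388 start A were of 30 nt. In all, 136 members began with TCTGA. Their median log2 ratio was 0.50, with 130 above 0, against 0.20 in the 10169 other members. It was the highest median of the 212 sets of first 5 bases held by at least 10 members, and the next highest was 0.37. At the other end the medians lay further from that of all members, with -0.76 for the 11 members beginning with TCCGG as the lowest and -0.64 as the next. Of those 136, 22 had 1 place, in 15 genes on 11 chromosomes. In T-start groups of 100 to 999 reads, which are no members, the median was 0.47 in 599 groups beginning with TCTGA and 0.19 in 48798 others. The cause was not tested.

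A log2 ratio at or below -1 was found in 170 members (1.65%), against 0.941% of all T-start groups with at least 100 reads. Of these 55 had a main length of 24 or 25 nt, 51 of 26 to 28 nt, 50 of 29 to 31 nt and 14 of 32 nt. Only 24 had 1 place. Of the 24, 13 lie in Lars2, a protein-coding gene by annotation, and 9 lie in the overlapping ribosomal entries around CT010467.1. Whether the reads of the Lars2 starts come from its mRNA was not tested. All 19 placed starts of Lars2 had log2 ratios between -1.62 and -0.82, and 14 of them were two-peaked. A start in its 3′ UTR had 299 KO-table and 1065 het-table reads (log2 -1.62), with the same lengths in both tables: 33.1% of KO-table and 35% of het-table reads at 26 nt and 25.8% and 25.2% at 32 nt. The starts of the CT010467.1 window had log2 ratios from -1.54 to 0.33, with a median of -1.0. Their main length was the same in both tables in 11 of 18, and 13 of 18 were two-peaked. In both sources the main lengths were spread, with 6 of 19 members at 29 to 31 nt in Lars2 and 4 of 18 in CT010467.1.

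A pair of unplaced members stood far below the other members. The member of rank 10175 had 56 KO-table and 958 het-table reads (log2 -3.88), and the member of rank 5357 had 122 and 1823 reads (log2 -3.69). The next lowest value was -1.80. Both had a spread of piRNA lengths. The first had 44.6% of KO-table and 42.5% of het-table reads at 30 nt. The second had 20.5% and 17.2% at 26 nt, 14.8% and 18.7% at 30 nt, and 23.0% and 17.9% at 32 nt. Its main length was 32 nt in the KO table and 30 nt in the het table. The KO-table shares rest on 56 and 122 reads. Where these starts lie in the genome is not known here.

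Members differed from groups with another first base in length and in their table ratios. With the same limit of 1000 reads there were 656 groups beginning with A, 741 with C and 690 with G. The main length was 29 to 31 nt in 57.7% of the members, against 43% (A), 35% (C) and 35.5% (G) of those groups. It was 24 or 25 nt in 6.34% of the members, against 18.6% (A), 25.9% (C) and 21.9% (G). The median log2 ratio was 0.20 in the members, against -0.53 (A), -0.83 (C) and -0.52 (G), and 1.65% of the members were at or below -1, against 30.2%, 33.3% and 30.9%. T-start groups of 100 to 999 reads, 49397 in number, were closer to the members in main length and table ratio, with 55.8% at 29 to 31 nt and a median log2 ratio of 0.19. They were not closer in every measure. The same main length in both tables was found in 94.0% of the members and in 86.0% of these smaller groups, against 91.5% (A), 91.0% (C) and 92.0% (G). Two-peaked groups made up 46.3% of the members and 49.2% of the smaller groups, against 53.5% (A), 57.1% (C) and 44.9% (G). No test was made of these differences, since the groups come from the same 2 libraries.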

How the data were processed

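Per the labels, a 15% gel was used to select RNA of 15 to 40 nt for TruSeq Small RNA libraries, 1 library per sample. The deposited tables list each distinct sequence with its raw count of reads, which sum to 54384974 in the KO table and 62773871 in the het table. Sequences are of 18 to 32 nt, and 0.188% of KO-table and 0.190% of het-table reads hold an undetermined base. The sources used here name no trimming or filtering tool and no genome build, and trimming decides the counted length.

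T-start sequences of 24 to 32 nt were grouped by 24 bases, and members needed 1000 reads. Read bases past 24 were taken as known with at least 20 reads and 90% of them alike. First bases were matched exactly to GENCODE M21 transcripts (GRCm38) and RefSeq miRNAs (GRCm38.p6), on both strands for transcripts. A genome sequence was not used here. Table ratios are log2 of RPM with 0.5 reads added. Python 3.11.15, numpy 2.4.6, pandas 2.3.3 and scipy 1.17.1 were used, and the length, peak and end calls were tested on simulated data with known lengths. Wrong last bases in the simulated data were A or C, never T, at the same rate for all lengths above 24 nt. The calls were thus not tested with T ends like those in these reads.

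The members and lists were chosen with earlier results of these data known. The named members are the 8 with most reads, the 5 two-peaked with most reads, the 4 highest and 4 lowest shares of 26 to 28 nt among the 500 with most reads, the 4 largest table differences of that share, and the 4 highest and 4 lowest log2 ratios. A sequence was shown only at 1 place outside chromosome 18, going down each ranking, and none from an annotated UTR. Not every named member is described. Alternatives covered the read minimum, the shared bases, the peak rules, the scaling, distinct sequences and the table used for choosing.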

Additional observations from a re-analysis of the deposited data

Results flagged for a closer look

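Reads of 18 to 23 nt were not part of the length forms, and some begin exactly like a member. Leaving out members in miRNAs, such reads made up 11.4% of the reads of 18 to 23 nt in the KO table (11.4 to 11.4) and 11.7% in the het table (11.7 to 11.7), far above the limit of 3 reads. They numbered 1276377 in the KO table and 1840373 in the het table, which was 6.24 and 8.79 per 100 member reads of 24 to 32 nt. At 18 nt there were 41192 KO-table and 132385 het-table reads, and at 22 nt 350760 and 424377. There were no control samples to set them against, and whether they are shorter forms of the same RNAs or pieces of them was not tested.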

How the results depend on the processing

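The percent and median values below were recomputed under 18 alternatives, 12 planned and 6 chosen after seeing the data. Of 71 values 38 stayed within the 95% interval of the reported value, 33 moved out of it and 0 changed sign. Only the log2 medians could change sign, since a percent or share cannot be negative. These intervals are over members counted as independent draws, which starts of 1 transcript are not. With each distinct sequence counted once, 65.5% of members had a main length of 29 to 31 nt and 16.6% one of 26 to 28 nt. In that setting 42.3% were two-peaked, 50.1% had the same main length in both tables and the median share of 26 to 28 nt was 26.2%. The base after the end was then known in 206 members only, and it was T in 63.1% of them. A minimum of 500 reads gave 47.3% two-peaked and 92.6% with the same main length, and one of 5000 reads gave 43.6%, 96.0%, a log2 median of 0.21, and 50.7% with T after the end. Reads equal to the majority base gave 56.5% at 29 to 31 nt, 44.6% with T after the end and a median share of 26.2%. Two-peaked members were 60.8% with peaks of at least 5%, 20.1% with at least 20%, 38.5% with a dip of at most 0.5 and 39.5% with peaks at 25 to 31 nt. The log2 median was 0.023 per 1000000 T-start reads, 0.49 per 1000000 reads of 18 to 23 nt, 0.22 for groups chosen in the KO table and 0.19 for those chosen in the het table. Members at 1 place gave 53.6% at 29 to 31 nt, 35% at 26 to 28 nt, 93.4% with the same main length and a median share of 27.9%, and with reads equal to the transcript these were 51.4%, 37.3%, 93.4% and 30.3%. The base of the transcript gave T after 26.5% of the ends, or 26% with reads equal to it. The value from reads was 1.87 times that of the transcript. The read-based one is limited to members whose longer reads mostly hold the same base, so the sets of members differ. Sharing the first 20 bases, or leaving out miRNA members, moved no value out of its interval. No paired analysis was possible because each table is 1 library.

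Lengths beyond 32 nt are not counted. Most members had no annotated place, so their sources and true end bases are not known here. Members of 1000 reads carry more counting error than those with more: of the 1000 members with most reads 96.3% had the same main length in both tables, and of the 1000 with fewest 91.2%.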
